A study of Mus musculus with 58 samples.

Results

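Fgf21, the gene of the hormone fibroblast growth factor 21, was followed in liver and kidney of mice given trichloroethylene (TCE), tetrachloroethylene (PCE) or vehicle. It was found by its symbol and its RefSeq transcript in the kidney table and by the same transcript in the liver table, and it is 1 of the 24122 genes counted there. Each table holds 1 row for it, so no other isoform competes for its reads. The gene was chosen by its measured levels and changes across tissue, solvent and dose in these same libraries. Its levels and changes are therefore given as a description with no test, and tests are reserved for the genes around it.

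FGF21 is a secreted, endocrine member of the fibroblast growth factor family. In mice the liver is the main source of the circulating hormone. It acts on cells that carry the co-receptor beta-klotho (Klb) together with an FGF receptor, chiefly FGFR1, and signals inside them through the ERK kinases. Hepatic Fgf21 is a known target of PPARα, the nuclear receptor that turns on fatty acid oxidation in fasting, and of ATF4, the transcription factor of the integrated stress response. Other organs can make it under mitochondrial or endoplasmic reticulum stress.

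Both compounds are chlorinated solvents. PCE carries a chlorine where TCE has its only hydrogen. The animals were male B6C3F1/J mice, a first-generation hybrid, 5 to 6 weeks old and dosed after a week of acclimatization. They were fed ad libitum. Each received 1 intragastric dose in the morning. The vehicle was 5% Alkamuls EL-620 in saline, and every group, the controls included, received it. TCE was given at 24, 80, 240 or 800 mg/kg and PCE at 30, 100, 300 or 1000 mg/kg, which correspond to about 0.22, 0.67, 2 and 6 mmol/kg of each compound. Each compound had its own vehicle group, which gave 20 groups over the 2 tissues and 58 libraries. Groups held 3 libraries except the liver PCE 0.67 mmol/kg group and the kidney PCE vehicle group, which held 2. The time between dose and tissue collection is not given in the sources used here, and the strain field of the labels reads C57BL/6 while the protocol names the hybrid. The labels do not say whether the 3 libraries of a group came from separate animals, so the spread within a group, and every p below, may be partly technical.

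Fgf21 lies on chromosome 7 of GRCm38.p6 at chr7:45613890-45615490, on the minus strand, in RefSeq. In the GENCODE annotation its 3 exons run from 45613886 to 45615490 and give a transcript of 951 bases. The 250 bases before its RefSeq start, chr7:45615491-45615740 on the minus strand, are shown because ATF4 and PPARα, whose target genes are described below, are known to act on the regulatory region of Fgf21. They are written 5′ to 3′, with the motif matches in capitals.
Fgf21 promoter: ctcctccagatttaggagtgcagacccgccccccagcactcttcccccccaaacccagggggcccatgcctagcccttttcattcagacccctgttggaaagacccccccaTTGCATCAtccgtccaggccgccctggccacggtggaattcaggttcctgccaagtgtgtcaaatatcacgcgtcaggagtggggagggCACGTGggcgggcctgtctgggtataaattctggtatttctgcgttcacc
The first capitals, TTGCATCA, are the C/EBP-ATF element TGATGNAA read on the opposite strand, 139 to 132 bases before the start (chr7:45615622-45615629). The second, CACGTG, is an E-box, 50 to 45 bases before the start (chr7:45615535-45615540). Both strands were searched, and the 2 matches do not overlap. Over the 32851 RefSeq promoter windows of 300 bases, TGATGNAA occurred in 3.97% and CACGTG in 7.15%. The nuclear receptor letters AGGTCA (16.26% of windows), their direct repeat DR1 (0.04%) and the cAMP element TGACGTCA (1.79%) were not in the Fgf21 window. A match is a description of letters, and a missing one says nothing about the factor.

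Total counts were 30932385 to 125880542 per liver library and 23247565 to 32420329 per kidney library. The deeper liver libraries, 88048143 to 125880542 counts, were the vehicle and 6 mmol/kg groups, so these groups are matched in depth. The liver libraries of the other doses held 30932385 to 65112568 counts. Lower-dose changes and dose trends in liver therefore compare libraries of unlike depth. Values are given as CPM, read counts scaled to library size, with TMM factors within a tissue. Hepatocyte markers summed to 86100 to 153000 CPM in liver, and proximal tubule markers to 50500 to 79300 CPM in kidney, as the tissue labels say. Adrenal cortex markers reached 5030 CPM in 1 kidney library, TCE 0.67 mmol/kg replicate 3, against a median of 4.74 over all kidney libraries.

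In liver, Fgf21 was low and uneven in the vehicle groups and highest at 6 mmol/kg of either solvent. With TCE the vehicle libraries stood at 2.46, 3.25 and 0.783 CPM. At 0.22 mmol/kg they read 7.00, 1.27 and 3.11 CPM, and at 0.67 mmol/kg 6.83, 2.42 and 13.4 CPM. At 2 mmol/kg the libraries read 3.40, 19.6 and 4.61 CPM, and at 6 mmol/kg 4.69, 20.9 and 10.8 CPM. The libraries of each TCE group, vehicle included, lay far apart. All libraries at 2 and at 6 mmol/kg were above all 3 vehicle libraries, while the lower doses overlapped with them. Against all 6 liver vehicle libraries, which reached 6.23 CPM, both of those groups overlapped.

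The mean at 6 mmol/kg TCE was 12.1 ± 8.19 CPM (SD, n = 3) against 2.16 ± 1.26 CPM (n = 3) in vehicle. The fitted log2 changes from vehicle were 0.81 ± 0.73 (SE), 1.8 ± 0.74, 2.09 ± 0.74 and 2.48 ± 0.74 from the lowest dose to the highest. At 2 mmol/kg the change rested largely on replicate 2 and was 0.89 without it. Of all tested liver genes, 5.84% had every library at 2 mmol/kg TCE above every vehicle library, and 8.07% did so at 6 mmol/kg.

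With PCE the liver vehicle libraries were at 6.23, 4.64 and 2.57 CPM. At 0.22 mmol/kg they were at 5.05, 2.98 and 6.60 CPM, at 0.67 mmol/kg at 1.54 and 6.60 CPM, and at 2 mmol/kg at 9.37, 7.01 and 5.49 CPM. At 6 mmol/kg they were at 14.3, 22.5 and 15.7 CPM. All 3 of these libraries were above the PCE vehicle group and above all 6 liver vehicle libraries, which ran from 0.783 to 6.23 CPM; the 3 lower PCE doses overlapped with vehicle. The mean at 6 mmol/kg was 17.5 ± 4.40 CPM (SD, n = 3) against 4.48 ± 1.84 CPM (n = 3), a log2 change of 1.97 ± 0.73. The changes at the lower doses were 0.13 ± 0.71, -0.13 ± 0.80 and 0.70 ± 0.71. At 6 mmol/kg PCE, 14.4% of tested liver genes had no overlap in the upward direction.

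Kidney Fgf21 was close to the limit of counting in every group but those of the higher PCE doses. The TCE vehicle libraries held 0, 2 and 15 reads of Fgf21. The TCE groups held 1, 1 and 6 reads at 0.22 mmol/kg, 3, 1 and 5 at 0.67 mmol/kg, 2, 1 and 1 at 2 mmol/kg and 4, 5 and 1 at 6 mmol/kg. A count of 0 allows up to 3 reads, and most of these libraries hold no more than a few. No TCE dose stood apart from vehicle, and the one vehicle library with 15 reads, replicate 3, was the highest of all 15 TCE kidney libraries.

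That library also decides the sign of the fitted TCE changes. They were -1.18, -1.04, -2.01 and -0.83 on the log2 scale from the lowest dose to the highest, and without it 1.10, 1.24, 0.27 and 1.45. No direction can be read from them.

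PCE gave another picture in kidney. The vehicle libraries held 4 and 2 reads, the 0.22 mmol/kg libraries 1, 4 and 3, and the 0.67 mmol/kg libraries 0, 2 and 0. At 2 mmol/kg there were 7, 10 and 8 reads, and at 6 mmol/kg 42, 74 and 80. Both groups lay above both PCE vehicle libraries without overlap. Of the tested kidney genes 12.2% did so at 2 mmol/kg and 16.7% at 6 mmol/kg, with 2 vehicle libraries.

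In CPM the kidney PCE 6 mmol/kg libraries were at 1.68, 2.31 and 2.72, against 0.154 and 0.0637 in vehicle. The means were 2.24 ± 0.524 CPM (SD, n = 3) and 0.109 ± 0.0636 CPM (n = 2), with a log2 change of 4.35 ± 0.79. Over the pooled reads the rate was 21.7 times that of vehicle, with an exact 95% interval of 9.79 to 59.8 that covers counting error only. At 2 mmol/kg the rate ratio was 2.83 (1.13 to 8.44) and the log2 change 1.46 ± 0.90, but the group lay below the TCE vehicle library of 15 reads (0.545 CPM). At 0.67 mmol/kg, 2 reads against 6 gave a rate ratio of 0.224 (0.0221 to 1.25), and at 0.22 mmol/kg the ratio was 0.866 (0.263 to 3.03). Fgf21 passed the filter on low counts in kidney, although no library outside the PCE 6 mmol/kg group held more than 15 reads of it.

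**Figure D1:**
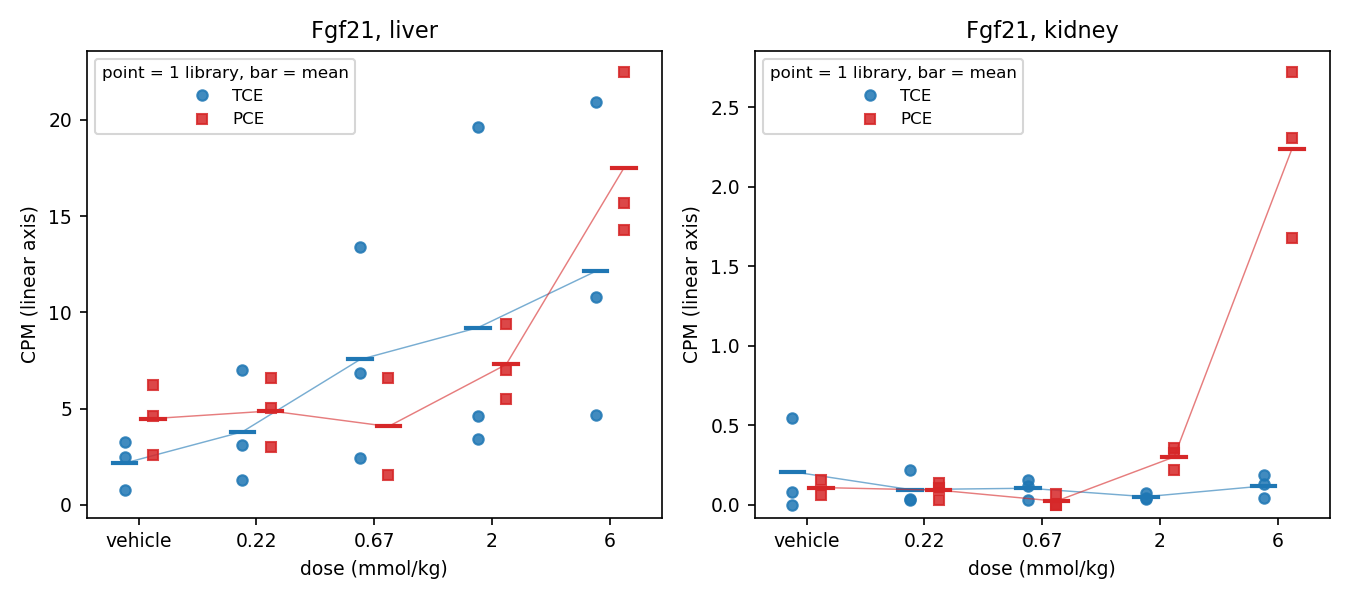
Fgf21 in CPM (linear axes with different ranges) against dose in mmol/kg in liver (left) and kidney (right), with 1 point per library, circles for TCE, squares for PCE, bars for group means and thin lines joining the means. Liver levels spread widely within TCE groups and the 3 PCE libraries at 6 mmol/kg lie between 14.3 and 22.5 CPM, while in kidney the PCE 6 mmol/kg libraries, at 1.68 to 2.72 CPM, stand above all others.

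Ordered by mean, the liver groups ran from PCE 6 mmol/kg (17.5 CPM) through TCE 6 (12.1 CPM), TCE 2 (9.20 CPM), TCE 0.67 (7.55 CPM) and PCE 2 mmol/kg (7.29 CPM) to PCE 0.22 (4.88 CPM), PCE vehicle (4.48 CPM), PCE 0.67 (4.07 CPM), TCE 0.22 (3.79 CPM) and TCE vehicle (2.16 CPM). In all 9 adjacent pairs the ranges overlapped, so the order of neighbours is not resolved. In kidney PCE 6 mmol/kg came first (2.24 CPM), then PCE 2 mmol/kg (0.301 CPM) and TCE vehicle (0.209 CPM), with the other 7 groups between 0.0232 and 0.119 CPM. Only the first 2 of these did not overlap among the 9 adjacent kidney pairs.

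At the matched dose of 6 mmol/kg the Fgf21 changes stand side by side as 2.48 ± 0.74 with TCE and 1.97 ± 0.73 with PCE in liver. In kidney they were -0.83 ± 0.82 with TCE, a value that rests on the vehicle library named above, and 4.35 ± 0.79 with PCE. Scaled over both tissues together, vehicle levels of Fgf21 were 4.89 ± 2.79 CPM in liver (SD, n = 6) and 0.116 ± 0.149 CPM in kidney (n = 5). Per dose step (vehicle and the 4 doses ranked), the Fgf21 slope was 0.62 ± 0.18 (SE) log2 units for TCE and 0.46 ± 0.11 for PCE in liver, and 1.62 ± 0.22 for PCE in kidney. In kidney with TCE Fgf21 did not pass the filter.

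Marker genes of other cells that can express Fgf21 were read beside these values. In bulk tissue, fewer cells of a type and less RNA per cell cannot be told apart. The proximal tubule markers of kidney summed to 50500 to 52200 CPM at 6 mmol/kg PCE, below every other kidney group and against 68400 to 70000 CPM in PCE vehicle. The hepatocyte markers of liver summed to 128000 to 153000 CPM at 6 mmol/kg PCE and 114000 to 122000 CPM in PCE vehicle, and to 128000 to 144000 CPM at 6 mmol/kg TCE and 110000 to 130000 CPM in TCE vehicle. In kidney, Alb, the main hepatocyte transcript, was at 14.5, 11.8 and 16.8 CPM at 6 mmol/kg PCE and at 9.06 and 11.8 CPM in vehicle, against a median of 86100 CPM in liver. The kidney library with the most Alb, 83.0 CPM, was TCE vehicle replicate 2, which held 2 reads of Fgf21. The 8 adipocyte markers, all detected, summed to 1.76 to 197 CPM in the PCE 6 mmol/kg libraries and to 4.38 to 23.9 CPM in PCE vehicle. Ucp1, which defines brown fat, was at 0.360, 0.156 and 111 CPM in those 3 libraries, where Fgf21 was at 1.68, 2.31 and 2.72 CPM.

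The 10 pancreatic acinar markers, all detected in at least 1 library, summed to 58 to 100 CPM at 6 mmol/kg PCE and 142 to 154 CPM in vehicle in kidney. Nearly all of that was Cela1, an elastase, at 58 to 154 CPM over the kidney libraries, while the acinar enzymes Cpa1 and Pnlip were at a median of 0. In liver the list summed to 12.0 to 29.4 CPM at 6 mmol/kg PCE, 58.1 to 60.4 CPM in PCE vehicle, 37.9 to 42.9 CPM at 6 mmol/kg TCE and 42.5 to 73.0 CPM in TCE vehicle, again as Cela1 for the most part. The part of these shifts in the Fgf21 values was not tested.

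The genes of the pathway were read from lists of 113 genes chosen with earlier results known: receptors, ERK targets, the PPARα and integrated stress response routes, unfolded protein sensors, the carbohydrate response route, other regulators and reported liver responses to FGF21. Calls are those of the edgeR quasi-likelihood test, with an adjusted p (Benjamini-Hochberg, over all tested genes) below 0.05. In liver at 6 mmol/kg, 14 of 102 tested list genes rose and 1 fell with TCE, where 1.31% of all tested genes were called, and 20 rose and 2 fell with PCE, where 5.84% were called. In kidney, 4 of 106 rose and 0 fell with TCE (0.176% of all genes called), and 30 rose and 1 fell with PCE (3.83%). The median change of the list genes was 0.15 and 0.33 in liver and 0.19 and 0.38 in kidney for TCE and PCE, beside -0.042, -0.002, 0.007 and 0.031 over all tested genes. With slopes for transcript length and GC content as covariates, an alternative added after seeing the data, the liver counts dropped to 8 for TCE and 1 for PCE.

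On the receptor side, Fgfr4 was the only gene that edgeR called at 6 mmol/kg. Klb, the co-receptor that makes a cell sensitive to FGF21, was at 11.0, 8.59 and 19.5 CPM in liver PCE vehicle and at 30.6, 19.6 and 24.5 CPM at 6 mmol/kg. The 3 dosed libraries were just above the vehicle range, as in 14.4% of tested liver genes. The Klb change of 0.94 ± 0.43 was not called (adjusted p = 0.17). With TCE the Klb change was 0.50 ± 0.42 (adjusted p = 0.753), and its groups overlapped. In kidney Klb had a median of 0.195 CPM over 29 libraries against 15.3 CPM in liver. Its highest value at 6 mmol/kg PCE, 1.73 CPM, was in replicate 3, the library with 111 CPM of Ucp1.

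Fgfr4, the FGF receptor most abundant in hepatocytes, fell with PCE in both tissues by edgeR. In liver it went from 79.5, 85.6 and 73.0 CPM in vehicle to 55.1, 66.0 and 54.1 CPM, a log2 change of -0.44 ± 0.12 (adjusted p = 0.0366). In kidney it went from 112 and 109 CPM to 77.3, 91.0 and 86.4 CPM, a change of -0.38 ± 0.11 (adjusted p = 0.0438). The groups did not overlap in either tissue, but the share of all genes separated downward in this way was not counted. The Fgfr4 call was lost in 8 of 13 liver and 6 of 12 kidney alternatives, with adjusted p up to 0.56 and 0.264. With TCE the changes were -0.39 ± 0.12 in liver (adjusted p = 0.135 by edgeR, while DESeq2 called it) and -0.22 ± 0.10 in kidney (adjusted p = 0.418). The liver PCE minus TCE difference was -0.05 ± 0.17 (95% interval -0.41 to 0.31, adjusted p = 0.928), so the fall is not shown to differ between solvents.

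Fgfr1, the main FGF21 receptor of fat, has 3 counted transcripts, so reads shared between them may be missing from its levels. It was not tested in liver, where its median was 0.0295 CPM. In kidney it was at a median of 0.702 CPM, with changes of 0.25 ± 0.34 for TCE and 0.19 ± 0.37 for PCE that were not called. The intestinal relative Fgf15 and the bone hormone Fgf23 were at a median of 0 in both tissues and were not tested.

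**Figure D2:**
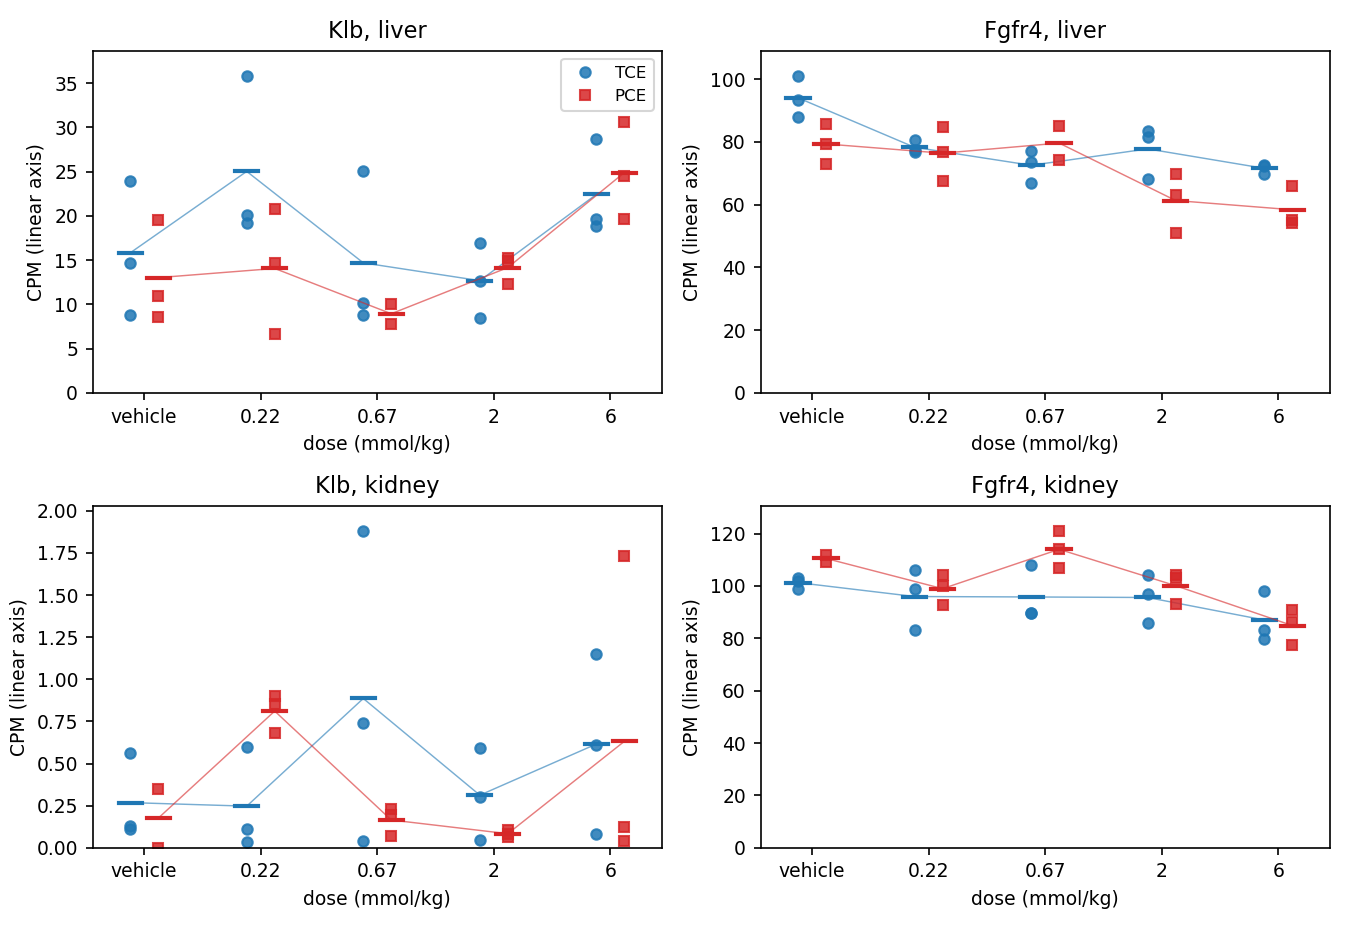
Klb (left) and Fgfr4 (right) in CPM (linear axes from 0) against dose in mmol/kg in liver (top) and kidney (bottom), with 1 point per library, circles for TCE, squares for PCE and bars for group means. Fgfr4 is lower at 6 mmol/kg PCE than in vehicle in both tissues, and kidney Klb stays below 2 CPM in every library.

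Of the ERK targets and feedback genes, 0 of 10 were called in liver with TCE, where 1.31% of all tested genes were called. Of the 10, 1 had an unadjusted p below 0.05, while DESeq2 called 0. With PCE, Spred1, an inhibitor of the ERK cascade, was called in liver, from 11.7, 7.64 and 8.98 CPM to 19.9, 15.2 and 17.1 CPM (0.88 ± 0.20, adjusted p = 0.0167). The Spred1 call was lost in 3 of 13 alternatives, with adjusted p up to 0.562. These were length and GC covariates, and leaving out PCE vehicle replicate 2 or dosed replicate 1. Spred1 has 2 counted transcripts, so shared reads may be missing from its levels. Over all tested liver genes 5.84% were called with PCE. In kidney 0 of 11 were called with either solvent (0.176% of all tested genes with TCE, 3.83% with PCE). Of the 11, 0 (TCE) and 2 (PCE) had an unadjusted p below 0.05, and DESeq2 called 0.

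Genes of the PPARα route rose in both tissues, with fewest calls in kidney with TCE. In liver 11 of 24 tested genes rose with TCE and 14 of 24 with PCE, and 0 fell in either. Over all tested liver genes 1.31% (TCE) and 5.84% (PCE) were called. In kidney 1 of 25 rose with TCE and 18 of 25 with PCE, again with 0 falling (0.176% and 3.83% of all tested genes called). For kidney TCE, 12 of 25 had an unadjusted p below 0.05, and DESeq2 called 5 of 25 (Acot1, Acot2, Cyp4a10, Cyp4a14 and Fabp1). Median log2 changes were 0.70 and 0.97 in liver, and 0.27 and 0.80 in kidney.

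Cyp4a14, a fatty acid omega-hydroxylase and a standard readout of PPARα, had the largest change of the list in all 4 comparisons. In liver it went from 1.52, 11.7 and 0.915 CPM to 1500, 904 and 849 CPM with TCE (7.84 ± 1.34, adjusted p = 0.00381). With PCE it went from 10.3, 5.20 and 2.05 CPM to 7480, 1150 and 2200 CPM (9.26 ± 1.42, adjusted p = 0.000952). The order of its liver PCE libraries was not that of Fgf21, which was highest in replicate 2, where Cyp4a14 was lowest. In kidney it went from 9.14 and 11.9 CPM to 2480, 361 and 295 CPM with PCE (6.63 ± 1.03, adjusted p = 0.00124), and here replicate 1 held the most Cyp4a14 and the least Fgf21 of the 3. With TCE in kidney the dosed libraries were at 173, 94.5 and 80.4 CPM against 9.37 to 17.1 CPM, a change of 3.19 ± 0.74 that was not called (adjusted p = 0.0821).

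The peroxisomal enzyme Ehhadh rose by 2.67 ± 0.39 with TCE and 3.36 ± 0.40 with PCE in liver (adjusted p = 0.00122 and 5.8e-05), and its call held in all 13 alternatives of each. Cyp4a10, a second omega-hydroxylase, rose by 5.66 ± 0.90 with TCE and 6.36 ± 0.93 with PCE, and the thiolase Acaa1b rose by 2.15 ± 0.29 with TCE. Vnn1, a pantetheinase, rose with PCE in liver from 5.12, 4.68 and 3.37 CPM to 56.3, 26.1 and 28.0 CPM (3.07 ± 0.45). With length and GC covariates the liver PCE calls of Vnn1, Cyp4a10 and Cyp4a14 were lost, each at an adjusted p of 0.0589. In kidney with PCE the acyl-CoA thioesterases Acot2 and Acot1 rose by 2.04 ± 0.19 and 2.38 ± 0.29 (adjusted p = 2.06e-06 and 8.91e-05), and their calls held in all 12 alternatives.

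Cpt1a, the gate of mitochondrial fatty acid oxidation, rose by 1.15 ± 0.32 in liver and 0.45 ± 0.10 in kidney with PCE and was not called with TCE. Its liver call was lost in 7 of 13 alternatives and its kidney call in 3 of 12, with adjusted p up to 0.333 and 0.185. Fabp1, the liver fatty acid binding protein, was the 1 gene of this route that edgeR called with TCE in kidney, from 9.16, 21.7 and 8.61 CPM to 55.2, 44.2 and 44.4 CPM (1.87 ± 0.32, adjusted p = 0.0206). That call was lost in 4 of 13 alternatives, 3 of them without TCE vehicle replicate 1 or dosed replicate 1 or 2, with adjusted p up to 0.191. Ppara itself was not called in any of the 4 comparisons. Its changes ran from -0.22 to 0.80, and its 2 counted transcripts share reads that the authors' counting can set aside as ambiguous.

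**Figure D3:**
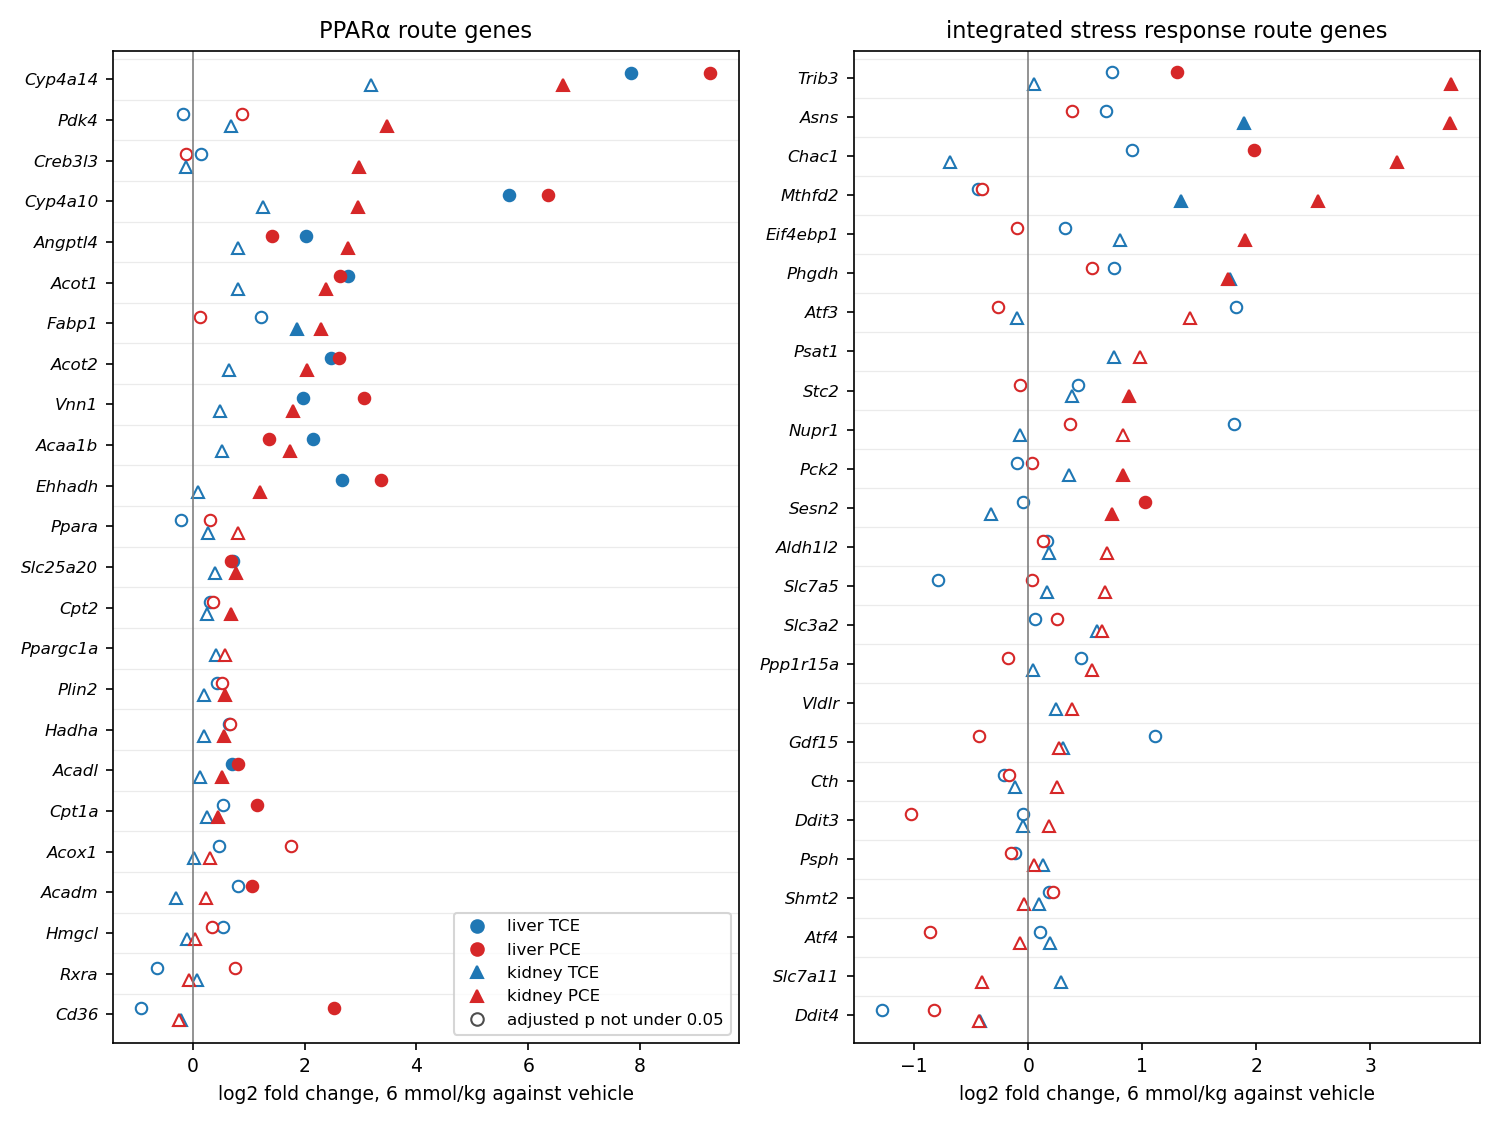
Log2 fold change at 6 mmol/kg against the same compound's vehicle for the PPARα route genes (left, 1 gene not shown) and the integrated stress response route genes (right), with circles for liver, triangles for kidney, blue for TCE and red for PCE, filled where the edgeR adjusted p was under 0.05. Filled symbols of the PPARα route come from liver with both compounds and from kidney with PCE, while most filled symbols of the integrated stress response route are kidney PCE triangles.

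Most calls of the integrated stress response route came from kidney with PCE. There 9 of 25 tested genes rose and 0 fell (3.83% of all tested genes called). In kidney with TCE 3 of 25 rose and 0 fell (0.176%). In liver 3 of 22 rose with PCE (5.84% of all tested genes called). With TCE 0 of 22 were called by edgeR (1.31%), with 6 at an unadjusted p below 0.05, while DESeq2 called 1, Ddit4. Median changes were 0.69 (PCE) and 0.18 (TCE) in kidney, and -0.02 (PCE) and 0.17 (TCE) in liver. In the liver minus kidney comparison 4 of 25 route genes differed with PCE (0.709% of all tested genes). With TCE 0 of 25 did by edgeR (0.328%), with 5 at an unadjusted p below 0.05, while DESeq2 called 1, Mthfd2.

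Trib3, a pseudokinase induced by ATF4, went in kidney from 0.692 and 0.701 CPM in PCE vehicle to 8.88, 12.3 and 6.19 CPM (3.71 ± 0.41, adjusted p = 1.81e-05). Of these dosed libraries, replicate 3 held the least Trib3 and the most Fgf21. At 2 mmol/kg PCE Trib3 was at 1.12, 1.77 and 1.13 CPM, below all libraries at 6 mmol/kg. These values were above both vehicle libraries, as in 12.2% of all tested kidney genes. With TCE the kidney levels of Trib3 at 6 mmol/kg were 0.903, 1.37 and 1.14 CPM, within the vehicle range of 0.658 to 1.60 CPM (0.05 ± 0.35). In liver it rose with PCE from 1.64, 4.59 and 3.23 CPM to 7.53, 6.33 and 9.38 CPM (1.30 ± 0.30, adjusted p = 0.0168), lost in 4 of 13 alternatives.

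Chac1, a glutathione-degrading enzyme and ATF4 target, reached 7.96, 18.3 and 14.9 CPM in kidney at 6 mmol/kg PCE, from 1.88 and 1.05 CPM (3.23 ± 0.53, adjusted p = 0.00131). With TCE it was at 1.48, 1.33 and 1.27 CPM against 1.27, 0.806 and 4.47 CPM in vehicle. The vehicle library at 4.47 CPM, replicate 3, is the one that held 15 reads of Fgf21. In liver Chac1 rose by 1.98 ± 0.49 with PCE (adjusted p = 0.0214), lost in 6 of 13 alternatives.

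Asns, asparagine synthetase, rose in kidney with both solvents, from 3.92 and 3.35 CPM to 44.0, 55.9 and 41.2 CPM with PCE (3.70 ± 0.42, adjusted p = 3.51e-05) and from 6.36, 4.96 and 7.23 CPM to 26.2, 31.0 and 11.3 CPM with TCE (1.89 ± 0.33, adjusted p = 0.0211). At 2 mmol/kg PCE it was at 12.5, 25.3 and 19.4 CPM, above both vehicle libraries, as Fgf21 and Trib3 also were. So were 12.2% of all tested kidney genes. The serine and folate enzymes Phgdh and Mthfd2 rose with TCE by 1.77 ± 0.33 and 1.34 ± 0.28, and with PCE by 1.75 ± 0.37 and 2.54 ± 0.33. Pck2, mitochondrial PEP carboxykinase, rose by 0.83 ± 0.10 with PCE. At 6 mmol/kg PCE, kidney replicate 3 held the least Asns and the most Fgf21 of its group. In liver Asns was not called with either solvent. The kidney TCE calls of Asns, Phgdh and Mthfd2 were lost in 5, 6 and 7 of 13 alternatives, among them leaving out replicate 1 or 2 of either group. Adjusted p then reached 0.237, 0.245 and 0.332.

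Atf4, the transcript of the route's own transcription factor, was not called in any comparison, with changes of 0.10 ± 0.43 and -0.86 ± 0.43 in liver and 0.19 ± 0.52 and -0.07 ± 0.57 in kidney for TCE and PCE. Ddit3, the transcription factor CHOP, was not called either, with a liver PCE change of -1.03 ± 0.39 (adjusted p = 0.105). Atf4 and Ddit3 each have 2 counted transcripts, so reads shared between them may be missing from their levels. Gdf15, another stress hormone, was not called, with 9.64, 16.5 and 76.6 CPM in liver at 6 mmol/kg PCE against 23.9, 85.6 and 28.9 CPM. Of the stress kinases and unfolded protein sensors, 0 of 10 were called in each of the 4 comparisons. Over all tested genes 0.176% to 5.84% were called there. In each comparison 0 or 1 sensor had an unadjusted p below 0.05, and DESeq2 called 0. Some of these genes also have 2 counted transcripts, so shared reads may be missing from their levels.

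Dose trends over the ranked doses gave a similar split. In liver 12 of 99 tested list genes rose and 0 fell along TCE doses (0.864% of all genes called), and 21 rose and 2 fell along PCE doses (12.6%). In kidney 3 of 104 rose along TCE doses (0.0523%), and 29 of 103 rose and 1 fell along PCE doses (3.48%). Per dose step Cyp4a14 rose by 1.93 ± 0.25 and 2.25 ± 0.26 in liver with TCE and PCE. In kidney with PCE, where the Fgf21 slope was 1.62, the slopes were 1.74 ± 0.23 for Cyp4a14, 1.01 ± 0.10 for Asns and 1.01 ± 0.14 for Trib3. The 3 kidney TCE trend calls, Cyp4a14, Acot2 and Phgdh, all had an adjusted p of 0.0463 and were lost in 12 or 13 of 19 alternatives.

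**Figure D4:**
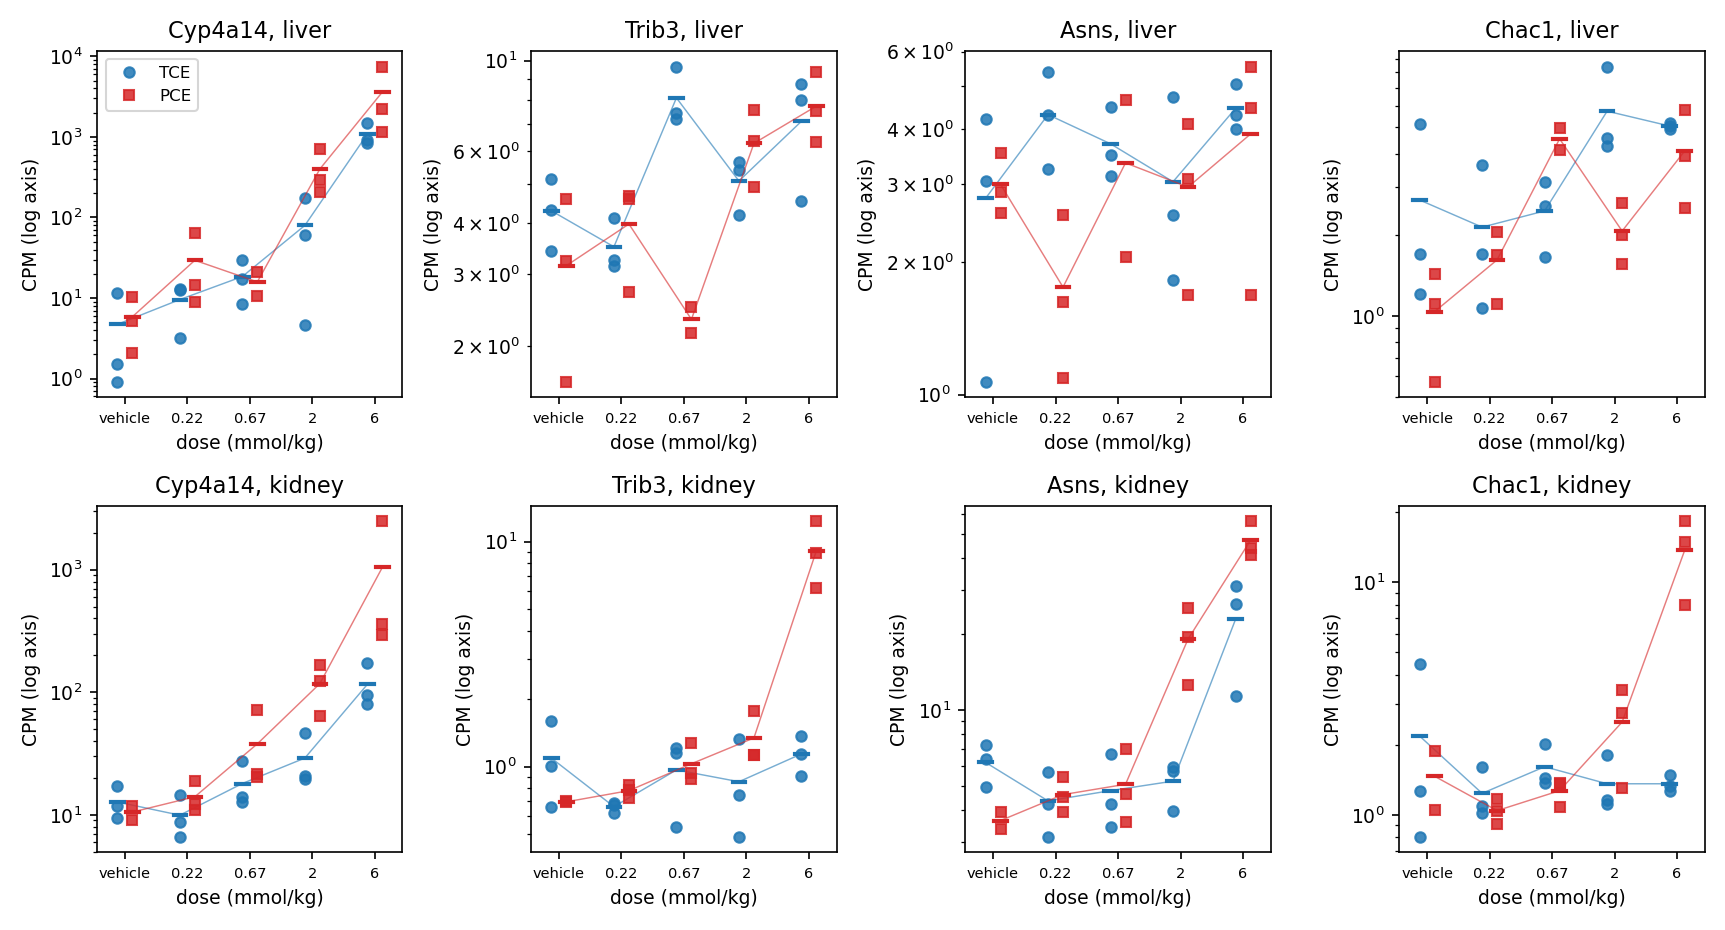
Cyp4a14, Trib3, Asns and Chac1 in CPM (log axes) against dose in mmol/kg in liver (top) and kidney (bottom), with 1 point per library, circles for TCE, squares for PCE, bars for group means and thin lines joining them. In kidney with PCE, Trib3 is at 1.12 to 1.77 CPM at 2 mmol/kg and 6.19 to 12.3 CPM at 6 mmol/kg, and Asns at 12.5 to 25.3 CPM and 41.2 to 55.9 CPM.

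Among other regulators of Fgf21, the nuclear receptor Nr1d2 rose in liver with both solvents, from 6.42, 13.5 and 10.3 CPM to 53.8, 41.3 and 32.2 CPM with TCE (2.07 ± 0.38, adjusted p = 0.00699). With PCE its change was 1.85 ± 0.38 (adjusted p = 0.00965). The TCE call was lost in 1 of 13 alternatives, without TCE vehicle replicate 3. The PCE call was lost in 2 of 13, with length and GC covariates and without dosed replicate 1. Its clock partner Nr1d1 was not called, with 118, 140 and 51.3 CPM at 6 mmol/kg TCE against 18.5, 34.6 and 14.4 CPM (2.19 ± 0.62, adjusted p = 0.0935). Nfil3, a transcriptional repressor, fell by 0.85 on the log2 scale (SE 0.20) in liver with TCE (adjusted p = 0.033), lost in 9 of 13 alternatives. Klf15, a fasting-related factor, rose by 0.60 ± 0.17 in kidney with PCE (adjusted p = 0.0484), lost in 7 of 12.

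In the carbohydrate response route Mlxipl, the glucose-sensing factor ChREBP, was not called in any comparison. Its target Txnip rose by 2.41 ± 0.61 in liver with TCE (adjusted p = 0.0494, lost in 10 of 13 alternatives). In kidney with PCE Txnip rose by 1.48 ± 0.37 (adjusted p = 0.0232, lost in 4 of 12). Txnip has 2 counted transcripts, so reads shared between them may be missing from its levels. Khk, ketohexokinase, fell in liver with PCE from 467, 477 and 489 CPM to 305, 289 and 304 CPM (-0.67 ± 0.12, adjusted p = 0.00422). That call was lost in 1 of 13 alternatives, with length and GC covariates (adjusted p = 0.0929). With TCE the Khk change was 0.01 ± 0.12.

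Of the genes reported to respond to FGF21 in liver, 1 of 8 was called with each solvent, where 1.31% (TCE) and 5.84% (PCE) of all tested genes were called. Socs2, a brake on growth hormone signalling, rose with TCE from 0.786, 0.321 and 0.353 CPM to 3.45, 2.70 and 5.20 CPM (2.96 ± 0.70, adjusted p = 0.033). Lpin1, a phosphatidate phosphatase, rose with PCE from 0.455, 0.330 and 0.856 CPM to 6.26, 2.14 and 2.28 CPM (2.69 ± 0.76, adjusted p = 0.0389). Socs2 has 4 counted transcripts and Lpin1 has 3, so shared reads may be missing from these levels. These calls were lost in 9 and 7 of 13 alternatives. By edgeR neither gene was called between solvents (PCE minus TCE adjusted p = 0.539 for Socs2 and 0.816 for Lpin1). For Socs2 the difference was -2.09, with an interval of -4.01 to -0.18, negative throughout, and an unadjusted p of 0.0336. For Lpin1 the difference was 0.7, with an interval of -1.39 to 2.8. A difference between solvents is thus neither shown nor excluded for these genes. Igfbp1, an IGF-binding protein made by the liver, was not called there with either solvent, at 0.90 ± 0.55 and 1.31 ± 0.56. In kidney it rose with PCE from 1.5 and 2.42 CPM to 42.1, 4.55 and 15.4 CPM (3.38 ± 0.67, adjusted p = 0.00619), lost without either PCE vehicle library.

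The solvents were compared at 6 mmol/kg by the difference of their changes. In liver 0% of tested genes differed (0 of 13174 by edgeR, 1169 with unadjusted p below 0.05, while DESeq2 called 42), and so no list gene did by edgeR, with 11 of 102 with unadjusted p below 0.05, while DESeq2 called 1, Khk. The intervals are wide: the PCE minus TCE difference was 1.43 for Cyp4a14 (95% interval -1.51 to 4.37), 0.57 for Trib3 (-0.29 to 1.44) and 0.43 for Klb (-0.80 to 1.67). In kidney 0.0211% of tested genes differed, and these were 3 list genes, Trib3 (3.66 ± 0.53), Chac1 (3.93 ± 0.68) and Acot2 (1.40 ± 0.24), each with the larger change under PCE (adjusted p = 0.00556, 0.0381 and 0.0365). None of the 3 was called without kidney TCE vehicle replicate 3 or without either PCE vehicle library.

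The tissues were compared likewise. All 58 libraries were treated as independent, although the labels do not say which liver and kidney libraries share an animal. For TCE, 0.328% of tested genes differed and 5 of 109 list genes did, all of the PPARα route and all with the larger change in liver, led by Ehhadh (2.57 ± 0.41, adjusted p = 0.000717) and Cyp4a10 (4.43 ± 0.87, adjusted p = 0.00725). The Ehhadh call held in all 16 alternatives, that of Cyp4a10 was lost in 1, without liver TCE vehicle replicate 3, and that of Acaa1b in 5. For PCE 0.709% of genes differed and 9 list genes did. Ehhadh (2.16 ± 0.43) and Cd36, a fatty acid transporter (2.74 ± 0.64), had the larger change in liver, where the Cd36 call was lost in 6 of 15 alternatives. The other 7 had it in kidney, among them Creb3l3, a partner of PPARα on the Fgf21 gene (-3.09 ± 0.50, adjusted p = 0.000399), Asns (-3.32 ± 0.64, adjusted p = 0.00486) and Trib3 (-2.42 ± 0.51, adjusted p = 0.01). The calls of Asns and Trib3 were lost in 1 and 2 of 15 alternatives, Asns without kidney PCE vehicle replicate 2 and Trib3 without either kidney PCE vehicle library, left out in turn. The Fabp1 call was lost in 6. Cd36 has 5 counted transcripts, so reads shared between them may be missing from its levels. Creb3l3 stayed at 376 to 391 CPM in liver at 6 mmol/kg PCE and reached 2.24, 0.748 and 1.26 CPM in kidney from 0.192 and 0.159 CPM. Fgf21 had PCE changes of 1.97 in liver and 4.35 in kidney.

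Genes with the level pattern most like Fgf21 were ranked by Pearson correlation of log2 CPM over the 29 libraries of a tissue, as a description. Libraries share their group, depth class and scaling. In liver, among 9305 genes, the 6 were Acot1 (r = 0.78, rho = 0.77), Klf10 (0.78 and 0.80), Ech1 (0.77 and 0.76), Oser1 (0.77 and 0.78), Eci1 (0.76 and 0.75) and Acaa1b (0.76 and 0.74). Without the 2 libraries farthest from the median r was 0.75 for Acot1 and 0.73 for Klf10. Within groups, after group means were removed, it was 0.54 for Acot1, 0.68 for Klf10 and 0.55 to 0.63 for the other 4. In the liver TCE 2 mmol/kg group, where Fgf21 was at 3.40, 19.6 and 4.61 CPM, Acot1 was at 9.93, 60.7 and 18.0 CPM and Klf10 at 3.99, 15.5 and 8.81 CPM, highest in the same library.

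In kidney the 6 genes among 10937 were Chac1, Trib3, Iars, Abca1, Mthfd2 and Sik3. The 3 PCE 6 mmol/kg libraries stand apart from all others there, so r is given over the other 26. It was 0.71 for Chac1, 0.50 for Trib3, 0.54 for Iars, 0.58 for Abca1, 0.54 for Mthfd2 and 0.58 for Sik3. Many of those 26 values of Fgf21 rest on 0 to 5 reads. The 26 include TCE vehicle replicate 3, with 15 reads of Fgf21 and the most Chac1 of its group. The r without that library was not computed. Within groups r was 0.67 for Chac1, 0.45 for Mthfd2, 0.43 for Trib3, 0.29 for Iars, 0.27 for Abca1 and 0.24 for Sik3.

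**Figure D5:**
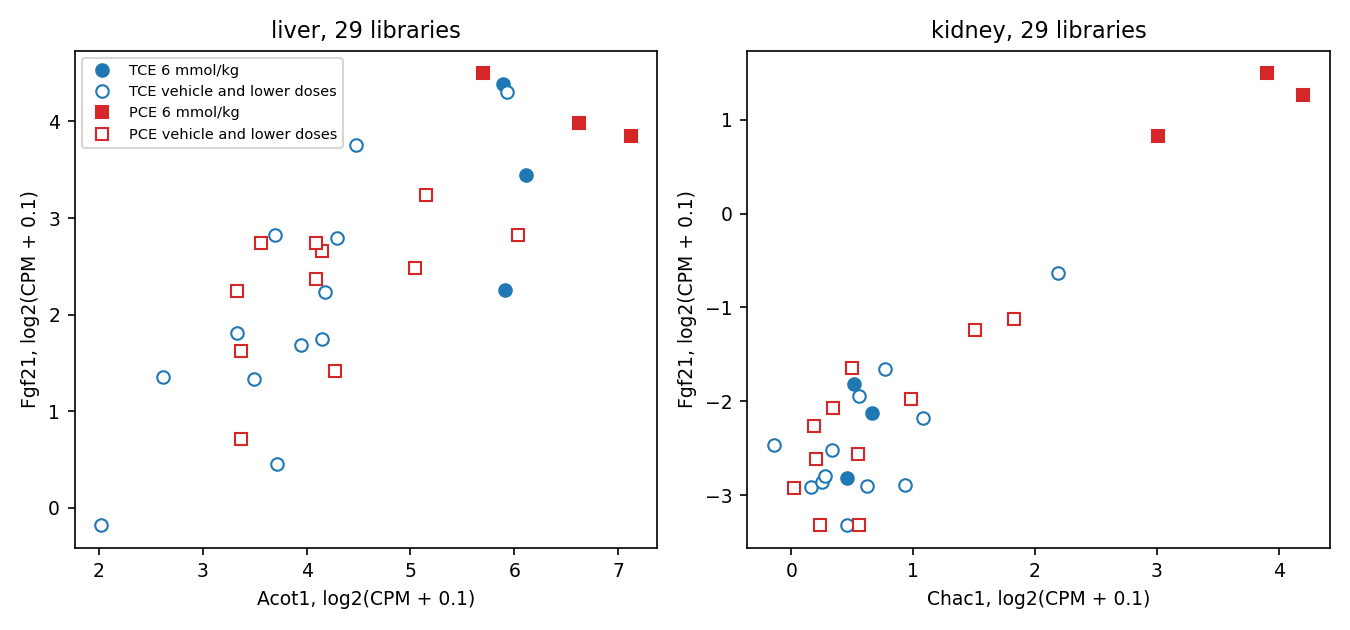
Fgf21 against Acot1 over 29 liver libraries (left) and against Chac1 over 29 kidney libraries (right), both axes as log2(CPM + 0.1), with circles for TCE, squares for PCE and filled symbols for 6 mmol/kg. In liver the libraries form 1 broad cloud (r = 0.78), and in kidney the 3 filled PCE squares stand apart, with r = 0.71 over the other 26 libraries.

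The genes within 25 kb of Fgf21 on chromosome 7 were not called at 6 mmol/kg. Bcat2, the mitochondrial branched-chain aminotransferase 24180 bases away, had log2 changes of -0.49 ± 0.26 and -0.23 ± 0.26 in liver and 0.07 ± 0.12 and 0.31 ± 0.13 in kidney for TCE and PCE. Along the kidney PCE doses it rose by 0.09 ± 0.02 per dose step (adjusted p = 0.048). Rasip1 and Mamstr had an adjusted p of 0.259 or more in all 4 comparisons. The nearest gene, Fut1, 2116 bases from Fgf21, was at no more than 0.17 CPM and Izumo1 at no more than 0.288 CPM in any library, and neither was tested.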

How the data were processed

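RNA was measured in 29 liver and 29 kidney libraries by TruSeq total RNA sequencing on a HiSeq-2000, per the labels' protocols. Tools listed, per the submitters' processing notes, were TopHat2 2.0.10 and HTSeq, with CASAVA 1.8.2, and the genome build was mm10. The authors deposited raw read counts per RefSeq transcript, 33392 per tissue. Some deposited columns were handled as estimated counts because a dose line heads them, but all their values are whole. Reads shared between transcripts are set aside by such counting: ambiguous reads were 19.68 to 22.55% and reads outside features 14.29 to 27.53% of a library, and both stayed out of library sizes.

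Transcripts were summed to genes by accession (32988) or deposited symbol (278), and 126 had no name. edgeR 4.0.16 (R 4.3.3, limma 3.58.1) quasi-likelihood tests, with TMM scaling, filterByExpr and 10 groups in 1 fit per tissue, gave log2 changes, with Benjamini-Hochberg adjustment over all tested genes. Trends used dose ranks, and tissues were compared in 1 fit of 58 libraries. CPM intervals are exact Poisson intervals and cover counting error only. Scripts were tested on simulated counts. Alternatives were DESeq2 1.42.0, its size factors in edgeR, no filter, a replicate block, pooled vehicles, 1 compound's libraries alone, each library left out and, added after seeing the data, length and GC covariates.

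Fgf21, the gene lists and the tests were chosen with earlier results of these data known. Named genes were Fgf21, a fixed set of genes reported whatever their result (1 of them is not reported here), up to 3 called genes per list, comparison and direction, the 6 genes most like Fgf21 per tissue, and neighbours within 25 kb. Outside that rule, Ddit4, Fgf15, Fgf23, Acadm and the marker genes were named after their values were seen. Promoter letters are from RefSeq GRCm38.p6.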

Additional observations from a re-analysis of the deposited data

Results flagged for a closer look

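The tests of a difference between solvents or tissues passed the adjusted threshold for the results given here as PCE minus TCE or liver minus kidney differences of log2 changes at 6 mmol/kg (edgeR). Between solvents in kidney these were Trib3 (3.66), Chac1 (3.93) and Acot2 (1.40). Each had every 6 mmol/kg PCE library above every PCE vehicle library, as did 16.7% of all tested kidney genes. Their calls were lost in 3, 9 and 7 of 16 alternatives, among them leaving out kidney TCE vehicle replicate 3.

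Between tissues with TCE the genes were Ehhadh (2.57), Cyp4a10 (4.43), Acot2 (1.83), Acaa1b (1.64) and Acadm (1.11), all with the larger change in liver. With PCE, Cd36 (2.74) and Ehhadh (2.16) had the larger change in liver, where Cd36 was at 0.133 to 0.624 CPM after dosing. Asns (-3.32), Creb3l3 (-3.09), Mthfd2 (-2.97), Trib3 (-2.42), Fabp1 (-2.17) and Eif4ebp1 (-2.01) had it in kidney. Among these calls, Cd36 and Fabp1 were each lost in 6 of 15 alternatives, and Acaa1b with TCE in 5 of 16.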

How the results depend on the processing

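No call of a named list gene changed sign under the alternatives run. The other called list genes were not checked for sign. With length and GC covariates the called list genes went from 15 to 8 (liver TCE) and from 22 to 1 (liver PCE), and the liver PCE Fgf21 changes were 1.30 at 2 and 2.76 at 6 mmol/kg. With 1 compound's libraries alone there were 7 in liver TCE and 2 in kidney TCE. Without the count filter, kidney TCE gave 2 and its trend 0. DESeq2 gave 11 for kidney TCE, 10 for its trend, 20 for the liver TCE trend, 1 and 13 for PCE minus TCE in liver and kidney, and 11 for liver minus kidney with TCE. With pooled vehicles kidney TCE gave 8, and the kidney PCE Fgf21 changes were -0.89, -2.67, 0.77 and 3.67 by rising dose. The cause of these shifts was not tested. Within a tissue, same-numbered 6 mmol/kg and vehicle replicates did not deviate together (correlations -0.277 to 0.193). Liver and kidney libraries of the same number were not compared. The labels do not say whether they share an animal, and the tissue tests treated them as independent. With a replicate block the kidney TCE trend gave 0 calls. The 27 other results, untested Fgf21 changes and counts of called list genes, stayed within the limits set for calling them the same.

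Leaving out 1 library at a time, the Fgf21 change in liver ranged over 0.02 to 1.23, 1.09 to 2.22, 0.89 to 2.53 and 1.83 to 2.92 with TCE by rising dose, and over -0.16 to 0.44, -1.55 to 0.58, 0.42 to 1.02 and 1.69 to 2.28 with PCE. In kidney it ranged over -2.51 to 1.10, -1.57 to 1.24, -2.54 to 0.27 and -1.37 to 1.45 with TCE, and over -0.73 to 0.48, -4.61 to -1.29, 0.94 to 2.15 and 3.83 to 5.04 with PCE. Called list genes ranged from 6 to 15 (liver TCE; 6 without vehicle replicate 3, 9 without dosed replicate 2), from 8 to 22 (liver PCE; 8 without dosed replicate 1, 14 and 12 without vehicle replicates 1 and 2), from 0 to 7 (kidney TCE; 0 without vehicle replicate 1 or dosed replicate 1 or 2, 1 without vehicle replicate 2, 7 without dosed replicate 3) and from 12 to 31 (kidney PCE; 17 and 12 without vehicle replicates 1 and 2). Trends gave 5 to 17 in liver TCE (5 without vehicle replicate 3 or dosed replicate 3 at 6 mmol/kg, 7 without dosed replicate 2), 13 to 33 in liver PCE (13 and 14 without dosed replicates 1 and 3), 0 to 3 in kidney TCE and 25 to 32 in kidney PCE. PCE minus TCE gave 0 in liver and 0 to 8 in kidney (8 without PCE replicate 2). Liver minus kidney gave 1 to 9 with TCE (1 without liver vehicle replicate 3, 9 without liver vehicle replicate 2) and 5 to 12 with PCE (5 without kidney vehicle replicate 2). Kidney Fgf21 below 2 mmol/kg PCE and at all TCE doses rests on 0 to 15 reads per library, which limits any change there.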
